A study of Mus musculus with 42 samples.

Results

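Olfr16 (MOR23) and Olfr73 (mOR-EG) are mouse odorant receptors (ORs) whose best-known ligands are neither acetophenone (ACT) nor trimethylthiazoline (TMT), a component of fox odor, so they ask whether the method reports receptors that the tested odorants are not known for. They were taken by name and not by any measured value, although earlier results of these data were known when they were chosen. Both are listed in all 9 tables, as 2 of the 1088 intact ORs (1087 in the dorsal and ventral table). C57BL/6 mice (C57BL/6J in the methods) of p20 to p22 were exposed to ACT or TMT at starting concentrations of 0.01%, 0.1%, 1% or 100% (v/v), or to no odor, and mRNA bound to ribosomes with phosphorylated protein S6 was sequenced from the olfactory epithelium (pS6-IP-Seq). Each of the 8 exposed groups and 4 no odor groups holds 3 libraries, 1 for each of 3 litters, and the 0.01% and 0.1% groups of an odorant share 3 no odor littermates, as do the 1% and 100% groups. Total RNA of dorsal and of ventral olfactory mucosa of C57BL/6 mice of the same age was sequenced in 3 libraries each.

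An olfactory sensory neuron (OSN) expresses a single OR, a G protein-coupled receptor, from a large repertoire, and OSNs with the same OR lie in a zone along the dorsomedial to ventrolateral axis of the epithelium. Activity of an OSN leads to phosphorylation of ribosomal protein S6, so immunoprecipitation of the phosphorylated form captures mRNA from active OSNs, and an OR whose OSNs respond is enriched in the captured RNA. MOR23 is known for its response to lyral, a floral fragrance aldehyde, and mOR-EG for its response to eugenol, the main odorant of clove.

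The members are only distant relatives. In GRCm38, Olfr16 lies on the plus strand at chr1:172950409-172958357 and Olfr73 on the minus strand at chr2:88032288-88037699. GENCODE M21 gives the longer Olfr16 transcript 3 exons and the longer Olfr73 transcript 2, and in both genes the coding sequence lies wholly in the last exon, with untranslated exons before it. The proteins are 309 and 313 residues long and share 40.9% of residues. The closest OR to Olfr16 is Olfr218, at 64.9% identity, and the closest to Olfr73 is Olfr1155, at 78.0%. The 30 bases that encode the conserved motif at the end of the third transmembrane helix, an OR hallmark, are shown because they let the members be compared with each other, and Olfr73 with its closest relative, where ORs are most alike. Capitals mark the bases that differ, between Olfr16 and Olfr73 in their lines, and from Olfr73 in the line of Olfr1155.
Olfr16: atggGttatgaTCgTtAtgtggcTatTTgT
Olfr73: atggCttatgaCAgGtTtgtggcCatCCgC
Olfr1155: atggcCtatgacCgCtttgtggcTGtcTgT
These stretches lie at chr1:172957148-172957177 (Olfr16), chr2:88034754-88034783 (Olfr73) and chr2:87943240-87943269 (Olfr1155), those of Olfr73 and Olfr1155 on the minus strand. The members differ at 9 of the 30 bases, and Olfr1155 differs from Olfr73 at 7. Reads of 50 bases could tell the members from other genes over nearly their whole length. None of the 2641 stretches of 50 bases in the longer Olfr16 transcript occurred in a GENCODE transcript of another gene, and 84 of 2999 (2.8%) did in the longer Olfr73 transcript. The shorter Olfr73 transcript, which is the coding sequence alone, held none of them.

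The depth behind the values is the number of counts on ORs, which was 37012 to 128805 per pS6-IP-Seq library and 155319 to 242123 per dorsal or ventral library. In pS6-IP-Seq, Olfr16 had 49 to 228 counts per library and Olfr73 had 8 to 82, so that Olfr73 was measured less precisely. Levels below are normalized counts, which are counts per 100000 counts on ORs after TMM scaling, and a change is a log2 fold change of exposed over no odor. It comes from edgeR's quasi-likelihood test with litter as a block, is given with its standard error, and was called at an adjusted p below 0.05, with p-values adjusted over all ORs.

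Before the members, the exposures themselves were checked with an OR the study names as a sensitive responder to each odorant. The ACT responder Olfr923 had 601 to 1937 normalized counts at 0.01% ACT and 806 to 2574 at 0.1% ACT, against 87.7 to 170 in their no odor littermates. At 100% ACT it had 170, 288 and 1219, against 77.0 to 125 in the no odor littermates. The TMT responder Olfr1395 had 1977 to 2318 at 1% TMT and 1131 to 2354 at 100% TMT, against 276 to 491 in their no odor littermates. One library went against its label most clearly, and the one of litter 1 at 100% ACT did so in part. The library labelled 1% ACT, litter 1, had 109 normalized counts of Olfr923, against 1003 and 2223 in the other 1% ACT libraries, and 2732 of Olfr1395, against 244 and 470 in the other 2. The 51 ORs called higher at 1% TMT, a list chosen after these values were seen, had a median within-litter log2 change of 2.0 in that library, 0.28 and 0.21 in the other 1% ACT libraries, and 1.89 to 1.96 in the 1% TMT libraries that defined the list. The same list had 1.83 in litter 1 at 0.01% ACT, against 0.04 and 0.11 in the other litters. In litter 1 at 100% ACT it had 1.04, against 0.27 and 0.37. Olfr1395 itself had 328 normalized counts in litter 1 at 0.01% ACT, below the 444 of its no odor littermate, and Olfr923 had 1937 there. In litter 1 at 100% ACT, Olfr1395 had 566, against 354 in its no odor littermate. The 7 ORs called higher at 0.1% ACT had medians of -0.47 in litter 1 at 100% ACT, against 0.28 and 2.33 in the other litters, and of -0.04 in litter 1 at 1% ACT, against 1.33 and 2.63. Fold changes of the members over no odor at 0.01%, 1% and 100% ACT are therefore also given without litter 1.

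Olfr16 was called at 1 of the 8 exposures, as lower at 100% TMT, and Olfr73 at none. Over all ORs, 267 of the 8704 tests at these exposures were called (3.07%). No OR was called at 0.01% or 100% ACT in this fit, so the lack of a call there is shared by every OR. The study, with its own test, reported enriched ORs at both. Without litter 1, 4 ORs were called at 0.01% ACT and 87 at 100% ACT, with neither member among them. Among the 12 no odor libraries, Olfr16 had a lowest level of 161, a median of 196 and a highest of 336, and Olfr73 had 26.6, 48.9 and 75.3. The coefficient of variation of these levels was 24.5% for Olfr16 and 31.3% for Olfr73. The plot of levels by library shows the members against this spread.

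**Figure D1:**
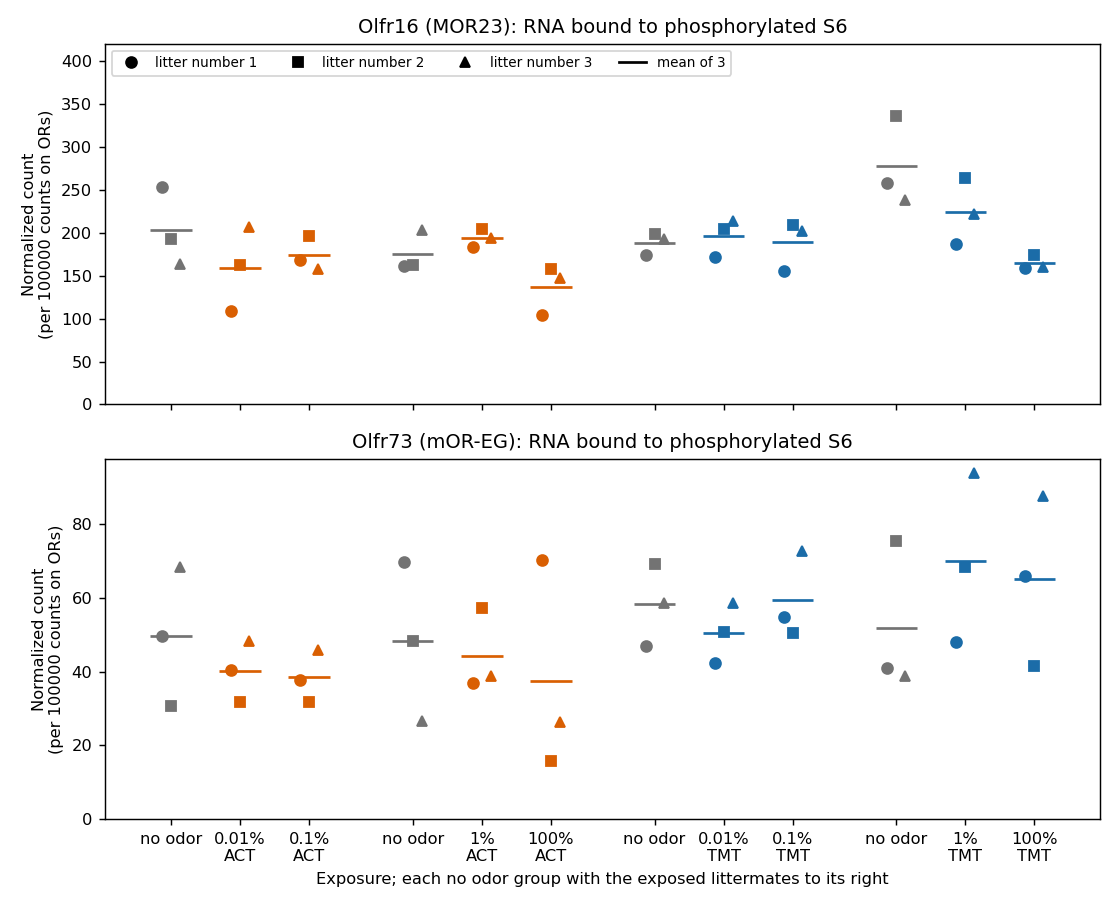
Normalized counts (per 100000 counts on ORs) of Olfr16 (top) and Olfr73 (bottom) in the 36 pS6-IP-Seq libraries, with each no odor group in gray left of the ACT (orange) or TMT (blue) littermates that share it. Marker shapes give the litter number within a set and lines the mean of 3. The 3 libraries of 100% TMT sit at 159 to 174 for Olfr16, below their no odor littermates at 238 to 336, and most groups overlap elsewhere.

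At 0.01% ACT, Olfr16 had 109, 162 and 207 normalized counts in litters 1 to 3, against 253, 192 and 164 in the no odor littermates. The groups overlapped, and the low value of the exposed library of litter 1 stands beside the high value of its littermate. The log2 fold change was -0.37 ± 0.36 (SE, n = 3 litters, adjusted p = 1 by edgeR), and 0.04 without litter 1. At 0.1% ACT, the levels were 168, 197 and 157, and the change against the same littermates was -0.18 ± 0.24 (adjusted p = 1 by edgeR). No OR was called at 0.01% ACT (0% of 1088), where 28 passed at an unadjusted p below 0.05, DESeq2 called 2 and edgeR's likelihood ratio test 3. The share called at 0.1% ACT was 0.643%.

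At 1% ACT, Olfr16 had 184, 204 and 194 normalized counts, against 161, 162 and 203 in the no odor littermates, a change of 0.14 ± 0.26 with all litters and 0.13 without litter 1. At 100% ACT, it had 104, 158 and 148, and all 3 lay below all 3 of the same no odor littermates, as did those of 9.19% of the 1088 ORs. The change was -0.40 ± 0.33 (adjusted p = 0.684 by edgeR) and -0.23 without litter 1. At 1% ACT 1.65% of ORs were called. None (0%) was called at 100% ACT, where 155 passed at an unadjusted p below 0.05, DESeq2 called 23 and the likelihood ratio test 43. Non-overlap of the 2 groups at 100% ACT is thus not matched by a call, for Olfr16 or for any other OR in this fit.

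At 0.01% TMT, Olfr16 had 172, 204 and 213 normalized counts, against 174, 199 and 192 in the no odor littermates, and at 0.1% TMT it had 156, 210 and 202. Exposed and no odor libraries interleaved at both. The log2 fold changes were 0.05 ± 0.23 and 0.01 ± 0.23 (adjusted p = 1 for both by edgeR), where 0.46% and 2.02% of ORs were called.

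At 1% TMT, Olfr16 had 187, 264 and 221 normalized counts, against 258, 336 and 238 in the no odor littermates. Every exposed library lay below its own littermate, although the groups overlapped, and the change of -0.35 ± 0.24 was not called (adjusted p = 0.767 by edgeR; 4.87% of ORs were called). At 100% TMT, Olfr16 had 159, 174 and 161 normalized counts against the same littermates. All 3 exposed libraries lay below all 3 no odor libraries, as they did for 10.6% of the 1088 ORs. Olfr16 fell by 0.78 on the log2 scale, with an SE of 0.27, which is 0.58 times the no odor level with a 95% interval of 0.403 to 0.836 times (adjusted p = 0.0281 by edgeR's quasi-likelihood test).

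Olfr16 was 1 of 36 ORs called lower at 100% TMT, which are 3.31% of the 1088 tested, while 126 (11.6%) were called higher and 14.9% were called in all. Its decrease was among the smaller of these 36, ranking 33 by size, where the median was -1.03 and the range -1.97 to -0.73. Leaving out any 1 litter ended the call, with an adjusted p of 0.206 without litter 1, 0.162 without litter 2 and 0.128 without litter 3, and DESeq2 gave 0.0679. The log2 change stayed between -0.84 and -0.66 in those fits.

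The no odor libraries of the 1% and 100% TMT litters stood high for Olfr16. They had 238 to 336 normalized counts, while the other 9 no odor libraries had 161 to 253, and the 159 to 174 counts at 100% TMT overlapped those 9. The share of OR counts that fell on the 407 ORs called dorsal, which include Olfr16, was 24.9%, 25.6% and 25.5% at 100% TMT, against 34.0%, 26.6% and 26.7% in these no odor littermates. At 1% TMT, where Olfr16 was not called, this share was 22.1%, 24.2% and 23.3%, lower than at 100% TMT. The part of the high no odor levels or of the dorsal share in the lower Olfr16 level was not tested.

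The decrease of Olfr16 could not be set apart from its values at other exposures. In a joint fit of the 36 libraries, its response at 100% TMT minus its response at 0.01% TMT was -0.79 ± 0.33 (adjusted p = 0.252 by edgeR). The level at 100% TMT against 1% TMT gave -0.44 ± 0.24 (adjusted p = 0.413), and at 100% ACT against 1% ACT -0.52 ± 0.24 (adjusted p = 0.277), or -0.44 without the library labelled 1% ACT of litter 1. The TMT response minus the ACT response at 100% was -0.37, with a 95% interval of -1.06 to 0.32. Without the litters numbered 1 it was -0.52. None of the 10 such contrasts passed for Olfr16 in edgeR, and 2 had an unadjusted p below 0.05. Of all ORs, 1.65% passed for 100% against 1% ACT, 2.67% for 100% against 1% TMT, 1.38% for the response at 100% minus that at 0.01% TMT, 0.46% for the TMT minus the ACT response at 0.1% and 0% for the other 6.

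Olfr73 was not called at any exposure, and its values scattered in both directions. At 0.01% ACT it had 40.3, 31.8 and 48.3 normalized counts and at 0.1% ACT 37.6, 31.8 and 45.9, against 49.6, 30.8 and 68.5 in the shared no odor littermates. Both exposed groups lay within the range of the no odor group. The log2 fold changes were -0.25 ± 0.35, or -0.23 without litter 1, and -0.30 ± 0.32 (adjusted p = 1 for both by edgeR).

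At 1% ACT, Olfr73 had 37.0, 57.2 and 38.8 normalized counts, and at 100% ACT 70.2, 15.8 and 26.4, against 69.8, 48.2 and 26.6 in the no odor littermates. The value of 15.8 rests on 8 counts, the fewest of any library. The changes were -0.06 ± 0.38 at 1% ACT and 0.37 without litter 1, which leaves out both the exposed library that went against its label and its no odor littermate. At 100% ACT the change was -0.50 ± 0.47, at -0.77 without litter 1 and 0.06 without litter 2, whose library holds those 8 counts.

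At 0.01% TMT, Olfr73 had 42.2, 50.6 and 58.5 normalized counts and at 0.1% TMT 54.7, 50.5 and 72.7, against 47.0, 69.3 and 58.5 in the no odor littermates. The changes were -0.21 ± 0.35 and 0.04 ± 0.31. At 1% TMT it had 48.1, 68.3 and 93.8, and at 100% TMT 66.0, 41.5 and 87.6, against 41.0, 75.3 and 38.9 in the no odor littermates. In litter 3 the exposed libraries were the highest and the no odor library the lowest of their set, while in litter 2 both exposed libraries lay below their littermate. The changes were 0.38 ± 0.36 at 1% TMT and 0.29 ± 0.41 at 100% TMT (adjusted p = 0.915 and 0.762 by edgeR). Without litter 3, they were 0.03 and -0.08. None of the 10 contrasts between concentrations or odorants passed for Olfr73, with 0 at an unadjusted p below 0.05 and a smallest adjusted p of 0.708 by edgeR. Few ORs of any kind passed these contrasts, at 0% to 2.67% of all ORs. At 0 of the 8 exposures did Olfr73 have an unadjusted p below 0.05 in edgeR's quasi-likelihood test, and DESeq2 and the likelihood ratio test also called it at 0.

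The intervals limit how large an unseen rise could be. Over the 8 exposures, the upper ends of the 95% intervals reached at most 1.57-fold for Olfr16 and 2.12-fold for Olfr73. With 1 litter left out they reached 1.94-fold for Olfr16, at 0.01% ACT without litter 2, and 3.80-fold for Olfr73, at 100% TMT without litter 2. Among the known responders, Olfr923 was 13.4-fold higher at 0.1% ACT (95% interval 7.66 to 23.5, adjusted p = 3.54e-04 by edgeR), although leaving out litter 1 or litter 2 ended that call with an adjusted p of 1 and 0.935. It was not called at 0.01% ACT (8.57-fold, adjusted p = 0.654), 1% ACT (7.13-fold, 95% interval 1.19 to 42.9, adjusted p = 0.664) or 100% ACT (95% interval 2.17-fold to 7.37-fold, adjusted p = 0.0513), and it was called lower at 1% TMT (log2 -0.97, adjusted p = 0.0193 by edgeR), a call lost without litter 3 (0.945), without the block (0.104) and in DESeq2 (0.728). The Olfr923 interval at 1% ACT overlaps those of the members. That fit includes the litter 1 library that went against its label, whose part in the overlap was not tested. The study, with its own test, reported Olfr923 as significantly enriched at every ACT concentration. Olfr1395 was 3.81-fold higher at 0.01% TMT, 7.01-fold at 0.1% TMT, 5.39-fold at 1% TMT and 4.03-fold at 100% TMT, with lower ends of the 95% intervals at 2.61-fold, 4.68-fold, 3.85-fold and 2.72-fold. Its call at 0.01% TMT was lost without litter 3 (adjusted p = 0.0777). The plot of changes sets the intervals of the members beside those of the responders.

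**Figure D2:**
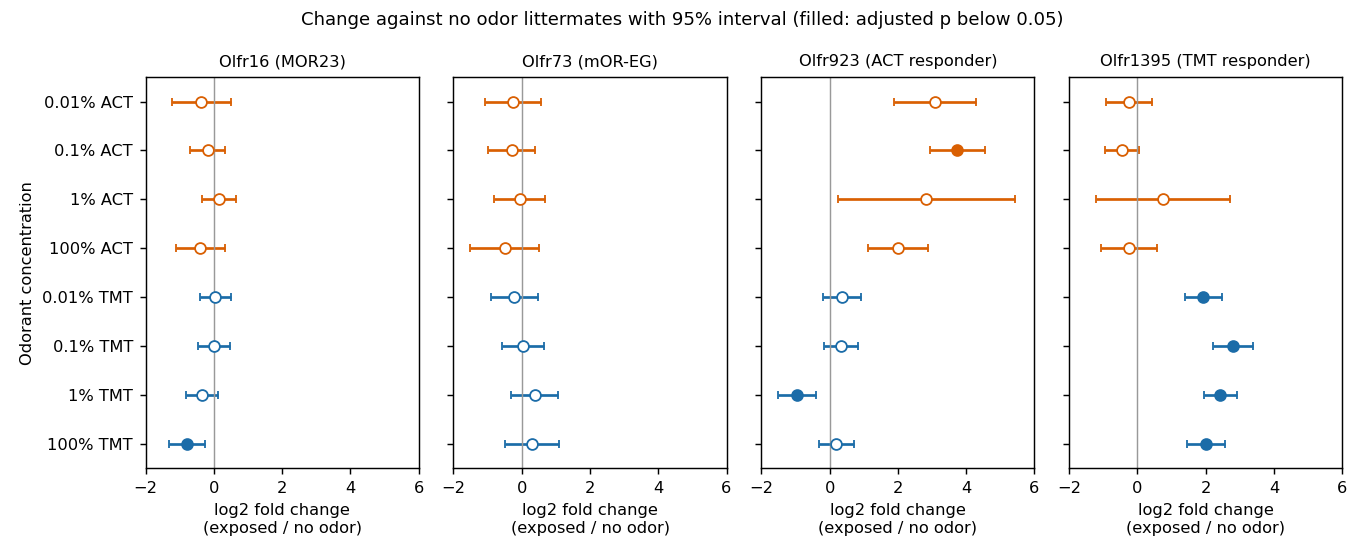
log2 fold change of exposed over no odor littermates with its 95% interval at each concentration of ACT (orange) and TMT (blue), for Olfr16, Olfr73, Olfr923 and Olfr1395. Filled points had an adjusted p below 0.05. Olfr16 has 1 filled point, at -0.78 for 100% TMT, Olfr73 has none, Olfr923 has 2, at 3.75 for 0.1% ACT and -0.97 for 1% TMT, and Olfr1395 has 4, from 1.93 at 0.01% TMT to 2.81 at 0.1% TMT.

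Averaged over exposures within litters, neither member moved beyond the spread between litters after adjustment. The mean log2 change of Olfr16 over the 12 litters was -0.22 ± 0.34 (SD), lower in 8 of 12, with p = 0.0396 in an exact two-sided sign-flip permutation test and 0.238 after Benjamini-Hochberg adjustment over 6 such tests. In the 6 ACT litters it was -0.20 ± 0.38 and in the 6 TMT litters -0.25 ± 0.32. Without the litters numbered 1, the means were -0.113 over all litters and -0.023 over the ACT litters. For Olfr73 the mean was -0.06 ± 0.54 over the 12 litters, lower in 6 of 12 (exact p = 0.694), with -0.28 ± 0.36 in the ACT litters and 0.15 ± 0.63 in the TMT litters. With 6 litters the smallest exact p possible is 0.0312. Counting 12 litters takes the 4 no odor groups to come from separate litters, which the study does not state.

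Both members belong to the dorsal zone. In total RNA of the mucosa, Olfr16 had 315, 187 and 390 normalized counts in the dorsal libraries, against 21.4, 38.3 and 27.2 in the ventral libraries. Olfr73 had 206, 146 and 282 in the dorsal libraries, against 11.2, 16.8 and 13.6 in the ventral ones. Dorsal and ventral values did not overlap for either member, which held, with dorsal higher, for 39.4% of the 1087 ORs, and in both the second dorsal library was the lowest of its group and the second ventral library the highest. Olfr16 was 10.1-fold higher dorsally (log2 3.34 ± 0.57, adjusted p = 4.16e-04 by edgeR) and Olfr73 14.8-fold (log2 3.89 ± 0.58, adjusted p = 1.88e-04). These are 2 of the 407 ORs called higher dorsally, 37.4% of the 1087 tested, where 74.6% were called in either direction. In bulk tissue such as this, fewer OSNs that express an OR and less of its RNA per OSN cannot be told apart.

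**Figure D3:**
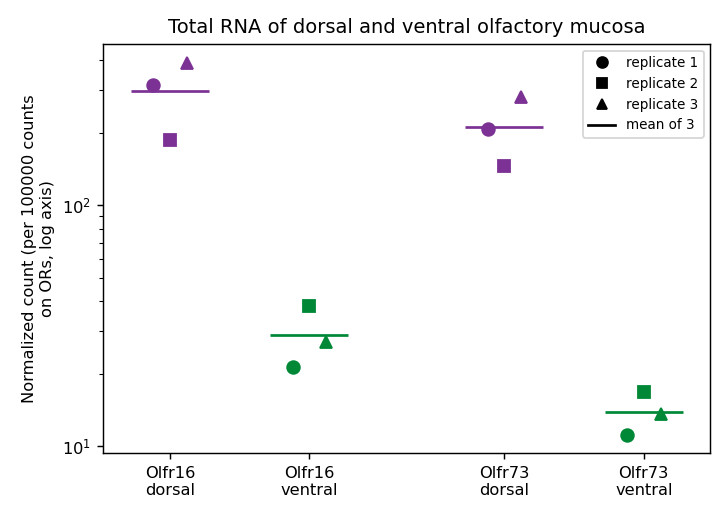
Normalized counts (per 100000 counts on ORs, log axis) of Olfr16 and Olfr73 in 3 dorsal (purple) and 3 ventral (green) libraries, with lines at the mean. Dorsal values are 187 to 390 for Olfr16 and 146 to 282 for Olfr73, and all lie above the ventral values of 21.4 to 38.3 and 11.2 to 16.8.

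The labels of these libraries were checked with class I ORs, the fish-like family that is expressed dorsally, taken as Olfr551 to Olfr690 by number, and with Olfr1507 (MOR28), a ventral OR. Class I ORs took 29.2%, 23.4% and 30.7% of OR counts in the dorsal libraries, against 1.92%, 3.11% and 3.08% in the ventral ones, and 102 of 106 were called dorsal. Olfr1507 had 3.03, 16.8 and 116 normalized counts in the dorsal libraries, against 789, 1093 and 311 in the ventral ones. Both checks follow the labels, and the difference was smallest in replicate 2 for class I ORs and in replicate 3 for Olfr1507.

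The close relatives of both members share their zone. All 3 closest ORs of Olfr16 (Olfr218, Olfr1406 and Olfr1404, 59.7% to 64.9% identity) were called dorsal, with log2 fold changes of 3.08 to 3.28, and so were those of Olfr73 (Olfr1155, Olfr74 and Olfr1161, 71.7% to 78.0%), at 3.04 to 3.51. At 100% TMT, the 3 relatives of Olfr16 had a median log2 change of -0.68, all below 0, and the 3 of Olfr73 had 0.90, all above 0. Of the 407 ORs called dorsal, 277 were also below 0 there, so this sign is common among dorsal ORs. Of the relatives of Olfr73, Olfr74 had only 1 to 4 counts and Olfr1161 2 to 9 per library there, so their values rest on few counts. None of these 6 was called there or at any other exposure by edgeR or DESeq2. Over the 8 exposures, 3 values of the Olfr16 relatives and 0 of the Olfr73 relatives had an unadjusted p below 0.05 in edgeR's quasi-likelihood test. The 3 values were 1 at 1% ACT and 2 at 100% TMT, where 80 and 252 of all 1088 ORs had such a p.

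The neighbors on the chromosome gave another pattern. Downstream of Olfr16 lie Olfr1408, Olfr1406 and Olfr218, 170 to 240 kb away, all called dorsal, whereas the 3 ORs before it on the chromosome are at least 80327 kb away and were called ventral. Olfr1408 was the neighbor called at 100% TMT in the direction of Olfr16. It fell by 0.89 on the log2 scale, with an SE of 0.31 (adjusted p = 0.0321 by edgeR), a call lost without any 1 litter (adjusted p = 0.168 to 0.244), without the block (0.0814), in the joint fit (0.143) and in DESeq2 (0.148). All 6 neighbors of Olfr73 lie within 55.2 kb, and 5 were called dorsal, while Olfr1163 was called ventral at -1.89. Olfr1160, the second OR before Olfr73 on the chromosome, had log2 fold changes of 3.59 at 1% TMT and 2.95 at 100% TMT (adjusted p = 2.21e-19 and 5.22e-10 by edgeR), where Olfr73 had 0.38 and 0.29, neither of which was called.

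Among dorsal ORs at large, changes at 100% TMT went both ways. Of the 407 ORs called dorsal, 32 were higher and 23 lower, with a median log2 change of -0.35, and of the 404 called ventral 57 were higher and 6 lower, with a median of 0.03, beside -0.09 over all 1088. Class I ORs, also dorsal, had a median of -0.46, with 0 of 106 called higher and 8 lower. Olfr16, at -0.78, lay below these medians and Olfr73, at 0.29, above them. The plot of zone against the change at 100% TMT shows both members among the dorsal ORs. With TMM the median of the 729 ORs averaging 20 or more counts was at -0.09, without TMM at -0.33 and with size factors over all genes at -0.39, and relative to that median Olfr16 was at -0.70 to -0.69 and Olfr73 at 0.38 to 0.39 under these and DESeq2's scaling.

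**Figure D4:**
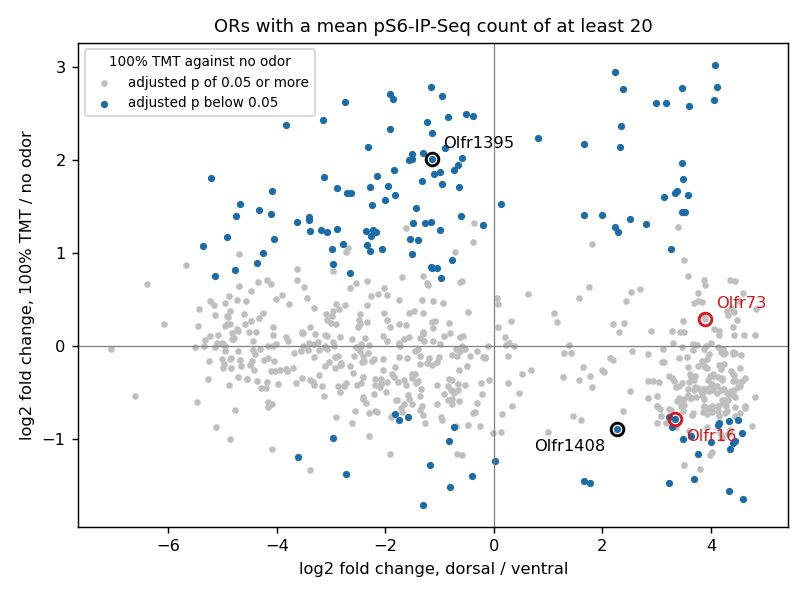
log2 fold change of dorsal over ventral mucosa (x axis) and of 100% TMT over no odor (y axis) for ORs that averaged 20 or more counts in pS6-IP-Seq, in blue where the adjusted p at 100% TMT was below 0.05. Olfr16 (3.34, -0.78) is among the called dorsal ORs below 0, with Olfr1408 (2.26, -0.89), and Olfr73 (3.89, 0.29) among the dorsal ORs that were not called, while Olfr1395 lies at -1.13 and 2.01.

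Other receptors that are known for other ligands were called in 1 of 64 tests over the 8 exposures (1.56%), near the share of all ORs (3.07%). Of these 8 ORs, which include Olfr2 (I7, octanal), Olfr74 (mOR-EV, vanillin) and Olfr544 (azelaic acid), 0 were called at 7 of the 8 exposures by edgeR's quasi-likelihood test, and 1 at 1% ACT. Their values passed an unadjusted p below 0.05 in 6 of these 64 tests, and DESeq2 called 0. The 6 cases were 2 each at 0.1% ACT, 1% ACT and 0.01% TMT, where 38, 80 and 56 of all 1088 ORs passed. Olfr2 and Olfr74 had at most 9 and 11 counts in any pS6-IP-Seq library. The OR called at 1% ACT was Olfr913, which was 2.55-fold higher (95% interval 1.72 to 3.78, adjusted p = 0.00142 by edgeR). It was called without litter 1, whose library went against its label (adjusted p = 0.00119), but not without litter 2 (0.965) or litter 3 (0.613), without the block (1), in the joint fit (0.416) or in DESeq2 (0.543). At 100% TMT, 14.9% of all ORs and none of these 8 were called, and their median log2 change was -0.06.

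The members did not follow each other across exposures. Over the 24 within-litter log2 changes (12 litters, each no odor library entering 2 changes), their changes had a Pearson correlation of -0.09. Among 729 ORs that averaged 20 or more counts, those most like Olfr16 in these changes were Olfr1487 (r = 0.71), Olfr683 (0.64) and Olfr1406 (0.63), of which the last is also a neighbor and a close relative. Those most like Olfr73 were Olfr1251 (0.66), Olfr622 (0.62) and Olfr1220 (0.62). These are the highest values among 729 ORs, and how high unrelated ORs would reach was not tested. The changes at 100% TMT are among those the ORs were picked by, so a call there is no separate support. Of these 6, Olfr1220 was called at 100% TMT, with a log2 change of 1.40 ± 0.52 (adjusted p = 0.0429 by edgeR), a call lost without any 1 litter, without the block, without TMM, with recovered size factors and in DESeq2 (adjusted p = 0.0561 to 0.361). Olfr683, Olfr1406 and Olfr622 were called dorsal and Olfr1251 and Olfr1220 ventral, so the ORs of most similar pattern were not all of the members' zone.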

How the data were processed

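Reads of 50 bases were aligned by the authors to GRCm38 (STAR), and RSEM gave counts per OR, whose annotation included UTRs. The deposited tables give these expected counts, rounded, for intact ORs, and the authors' mean signal per group (counts divided by size factors over all genes), from which those size factors were recovered. Deposited columns with the authors' own fold changes, log2 CPM, p-values and FDR were not used. The main test was edgeR 4.0.16 in R 4.3.3 (glmQLFit with robust = TRUE, then glmQLFTest), with TMM over the ORs, no filter on low counts and the replicate number as a block. Benjamini-Hochberg adjustment was over all ORs of a table. Contrasts between concentrations and odorants came from a joint fit of the 36 pS6-IP-Seq libraries with 12 litters, taken to be separate, as blocks. Changes within litters used log2(normalized count + 1). Alternatives were no TMM, recovered size factors, DESeq2 1.42.0, the likelihood ratio test, a mean count of at least 10, no block, a joint fit, a pseudocount of 5 and leaving out each litter. The fit was tested on simulated counts.

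The members and the gene lists were chosen with earlier results of these data known. Beside the members, the text names ORs known for other ligands, the 3 nearest ORs on either side, the 3 of highest protein identity, the 3 of most similar pattern, and Olfr923, Olfr1395, class I ORs and Olfr1507 as checks. Sequences and positions come from GENCODE M21, which placed 1082 of the ORs by symbol, and protein identities cover 1068.

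Littermates of the same sex make up each pS6-IP-Seq replicate in the study, so the numbers pair the libraries. The no odor libraries stand in the deposited table of each exposure under replicate numbers, with equal counts in the tables that share them, and were matched to samples by title and the study's code. Deviations of same-numbered libraries from their group means correlated at -0.10 to 0.35 (median 0.13, 24 pairs). In the dorsal and ventral libraries, for which the block follows the study's code, they correlated at -0.48 to 0. The labels do not say whether these came from separate mice, but the study reports as many mice for the zonal positions as there are libraries per zone. The labels do not tie a library to a mouse, and the p-values measure the spread between these libraries. For 1 library of 0.1% TMT, litter 1, a file name in its label reads 1% TMT, and its odor label was used. The label protocol of the dorsal and ventral libraries describes pS6-IP-Seq, and the study's description as total RNA was followed.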

Additional observations from a re-analysis of the deposited data

How the results depend on the processing

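The Olfr16 call at 100% TMT held with every setting run except DESeq2 (-0.76) and each fit that left out a litter (-0.84 to -0.66). Its size depended on scaling, as the change was -1.03 without TMM and -1.09 with recovered size factors. Without the replicate block it was -0.80 (adjusted p = 0.0490 by edgeR), and the block changed no other call of the members. Dorsal against ventral stayed called throughout, at 3.06 to 4.01 (Olfr16) and 3.65 to 4.43 (Olfr73) when a replicate was left out. Signs turned in values that were not called. For Olfr16 this was at 1% ACT without TMM (-0.001), at 0.01% TMT with recovered size factors (-0.05), at 0.1% TMT with DESeq2 (-0.007), the count filter (-0.013) and the joint fit (-0.004), and for the response at 100% minus 0.01% ACT without TMM (0.038), with DESeq2 (0.052) and with the filter (0.015). For Olfr73 it was at 1% ACT with recovered size factors (0.037) and the joint fit (0.005), at 100% TMT with recovered size factors (-0.01), and for 0.1% against 0.01% ACT without TMM (0.147). The cause was not tested. Leaving out a litter, or the library labelled 1% ACT of litter 1 where it enters (an alternative chosen after seeing the data), gave for Olfr16 -0.72 to 0.035 at 0.01% ACT, -0.003 to 0.079 at 0.01% TMT, -0.037 to 0.065 at 0.1% TMT, -0.032 to 0.43 for 0.1% against 0.01% ACT and -0.28 to 0.41 for the response at 100% minus 0.01% ACT. For Olfr73 it gave -0.31 to 0.37 at 1% ACT, -0.77 to 0.057 at 100% ACT, -0.12 to 0.29 at 0.1% TMT, -0.081 to 0.89 at 100% TMT, -1.13 to 0.16 for 100% against 1% ACT, -0.50 to 0.40 for the response at 100% minus 0.01% ACT, -0.32 to 0.12 for 100% against 1% TMT, -0.18 to 0.33 and -0.09 to 0.95 for the TMT minus the ACT response at 0.01% and at 1%, -0.23 to 0.10 as the mean of all litters and -0.11 to 0.46 as that of the TMT litters.

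The number of ORs called lower at 100% TMT depended on scaling, with 36 by TMM, 101 without it, 123 with recovered size factors and 10 in DESeq2, and 8 without litter 1. Those called at 1% ACT ranged from 0 without litter 2 to 21 without litter 1 (18 with all), with 2 without the block, and at 100% ACT from 0 with all litters to 87 without litter 1. With 3 litters and 8 to 82 counts per library, the limits on a change of Olfr73 are wide.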
